A study of Mus musculus with 9 samples.

Results

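Bidirectional promoters are short stretches of DNA from which 2 protein-coding genes are transcribed away from each other, one on each strand. Such promoters are usually rich in CpG, lack a TATA box and sit in a nucleosome-depleted region that both genes share, and many of them serve genes that nearly every cell needs, in DNA repair, mitochondria, translation and the cell cycle. Here the pairs were taken from the GENCODE annotation of the mouse genome (build mm9) as protein-coding genes on opposite strands, head to head, whose most upstream transcription start sites (TSSs) lay at most 1000 bp apart on chromosomes 1 to 19. The rule found 789 pairs with 1562 different genes, which is 7.29% of the 21418 protein-coding genes on these chromosomes, and it used no measured value. The region of a pair was the stretch between its TSSs with 500 bp added on each side, and it was called open in a library when an ATAC-Seq peak overlapped it. The contrast was 17272 single-gene promoters, windows of 500 bp on each side of the TSS of a gene with no other protein-coding TSS within 5 kb. Of all pairs, 16 genes stood in more than 1 pair, so that 32 pairs shared a gene with another pair, and 189 pairs held a gene with a predicted symbol.

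The libraries came from mouse embryonic fibroblasts (MEFs) taken from mid-gestation embryos that carry an IRES-EGFP cassette at the Oct4 gene, and reprogramming was induced with retroviruses for Klf4, c-Myc, Sox2 and Oct4 (OSKM) in feeder-free medium with LIF, ascorbic acid, basic FGF and CHIR99021. There was 1 library per condition. D0 and D3 were unsorted cells of day 0 and day 3, D6T- and D9T- were cells of days 6 and 9 sorted as Thy-1- (having lost a fibroblast surface marker), D12S+ and D16S+ were cells of days 12 and 16 sorted as SSEA-1+ (an early pluripotency surface marker), and iPSCs were fully reprogrammed cells. D6_siH3.3 and D6_siNT were Thy-1- cells of day 6 that had received small interfering RNA against the histone variant H3.3 or a non-targeting control 2 days before reprogramming. The methods count day 0 from the end of the viral infection in the knockdown experiment. ATAC-Seq marks open DNA by the cuts of a transposase, and it measures no RNA, so the knockdown itself could not be checked in these files. In bulk libraries, fewer cells with an open promoter and less opening per cell cannot be told apart.

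The files listed 13213117 (D9T-) to 31714845 (D0) tags per library. All signals below are the highest pileup of extended tags in any peak that overlaps a region, scaled to 1000000 tags in the library (CPM). The summit of such a peak can lie outside the region, as it did in 1.32% to 3.00% of open pairs and 5.30% to 9.68% of open single-gene promoters, and 50 pairs were affected in at least 1 library. The lowest value that was called a peak lay between 0.331 and 0.53 CPM. Peak strength differed between libraries, and the median signal of open promoters was highest in D6T- and lowest at D0. Of 8 fibroblast markers, 4 had a peak at their TSS at D0, 7 at D3, 6 in D6T-, 1 in D9T-, 4 in each of D12S+ and D16S+ and 2 in iPSCs, and Col3a1, Prrx1, Fbn1 and Col1a2 had none at D0. Of 8 pluripotency markers, 2 had a peak at D0 and 7 in iPSCs, with Esrrb at none in any library, while the retroviruses also carry Pou5f1 sequence. Of 6 epithelial markers, 0 were open at D0 and 6 in iPSCs. Of 5 haematopoietic markers, 1 had a peak in each library, and Ptprc, Cd3e and Lyz2 had none in any.

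The stretch between the TSSs is the DNA that both genes of a pair share, and a few of these stretches are shown because the results below turn on them. They are read 5′ to 3′ on the forward strand of mm9, leave out both TSSs, and run from the minus-strand gene (named first) to the plus-strand gene. Capitals mark matches on either strand to any of 10 motifs. They are CCAAT, the box of NF-Y, then GGGCGG, the box bound by SP and KLF proteins, and CCGGAAG, bound by ETS proteins. Next are GCATGCGC of NRF1 and AAGATGGC of YY1. The motif TGACGT is part of the cyclic AMP response element, and CACGTG is the E-box. The motif TGANTCA is that of AP-1. The motif TATAAA stands for the box near the start of many regulated genes. The motif ACTACAA is part of the ZNF143 site. TGACGT overlaps its own reverse complement in TGACGTCA, and a match is a description of letters, not a bound site.
The pair with the highest signal, with no capital in 27 bases, chr1:90174209-90174235.
Hjurp/Trpm8: ggggagggacgagagggagggtccgcc
A pair with copies of the NRF1 motif that overlap, chr3:79432786-79433000.
Etfdh/4930579G24Rik: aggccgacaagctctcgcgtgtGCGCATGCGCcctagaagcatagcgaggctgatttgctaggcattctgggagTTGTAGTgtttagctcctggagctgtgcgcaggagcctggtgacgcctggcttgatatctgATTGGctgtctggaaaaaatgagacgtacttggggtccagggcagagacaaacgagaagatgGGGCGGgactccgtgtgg
The pair that holds the H3.3 chaperone gene Hira, chr16:18876861-18877129.
Mrpl40/Hira: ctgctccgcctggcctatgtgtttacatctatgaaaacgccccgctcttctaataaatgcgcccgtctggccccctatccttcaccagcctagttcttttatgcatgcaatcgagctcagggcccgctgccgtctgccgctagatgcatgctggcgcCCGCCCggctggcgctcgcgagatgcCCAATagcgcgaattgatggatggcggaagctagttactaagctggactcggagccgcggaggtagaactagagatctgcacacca
A mitochondrial translation pair with 4 CCAAT boxes, chr7:29526840-29527009.
Mrps12/Sars2: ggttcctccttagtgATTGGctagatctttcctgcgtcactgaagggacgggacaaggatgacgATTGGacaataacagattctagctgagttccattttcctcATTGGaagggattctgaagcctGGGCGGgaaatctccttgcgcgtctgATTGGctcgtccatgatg
A pair of an H2A and an H2B histone gene, chr13:21925445-21925611.
Hist1h2ap/Hist1h2br: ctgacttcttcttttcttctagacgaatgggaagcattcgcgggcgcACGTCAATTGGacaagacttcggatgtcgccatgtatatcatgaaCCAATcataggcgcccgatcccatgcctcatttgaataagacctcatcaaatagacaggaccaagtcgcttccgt
The type IV collagen pair, closed in 5 libraries and with no capital, chr1:82583425-82583495.
Col4a4/Col4a3: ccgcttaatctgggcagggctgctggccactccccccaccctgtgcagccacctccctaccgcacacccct
The pairs with the largest increases from D0 to iPSCs, chr16:48994279-48994297 and chr7:89797039-89797123.
Dzip3/C330027C09Rik: agctgccaggcgcaagagg
Fam154b/Eftud1: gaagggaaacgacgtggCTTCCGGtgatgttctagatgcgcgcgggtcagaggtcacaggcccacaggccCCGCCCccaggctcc
A sperm gene pair that was closed in all 9 libraries, chr6:139989979-139990045.
Plcz1/Capza3: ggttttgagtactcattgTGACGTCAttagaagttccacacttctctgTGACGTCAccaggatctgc
Other pairs that were closed in all 9 libraries, chr17:24855003-24855060 and chr11:101848328-101848369.
Rnf151/Rps2: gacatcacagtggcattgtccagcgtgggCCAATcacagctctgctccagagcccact
Dusp3/1700006E09Rik: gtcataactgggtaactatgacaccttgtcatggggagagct

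To ask how far the pairs differ from other promoters, the share with a peak was compared in each library. The pairs were nearly all open throughout reprogramming, whereas single-gene promoters were open about as often as closed. At D0, 728 of 789 pairs (92.3%, 95% exact binomial interval 90.2 to 94.0) had a peak, against 46.2% of single-gene promoters. The share of pairs was 97.1% at D3 and in D6T-, 88.6% in D9T-, 95.8% in D12S+, 96.3% in D16S+ and 96.5% in iPSCs, and 92.3% in each of D6_siH3.3 and D6_siNT. In the same order single-gene promoters stood at 59.0%, 58.1%, 41.9%, 53.9%, 54.6% and 55.9%, and at 45.2% and 46.0% in the siRNA libraries. The pairs were ahead in 9 of 9 libraries, by 43.1 percentage points on average (SD over libraries 3.51, range 38.1 to 47.0). An exact two-sided sign-flip permutation test over the 9 libraries gave p = 0.00391, the smallest value that 9 libraries allow. The libraries are conditions and not replicates, and they share the same regions, so this p says only that the difference kept its sign over libraries. D9T-, with the fewest tags, had the lowest share in both classes.

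**Figure D1:**
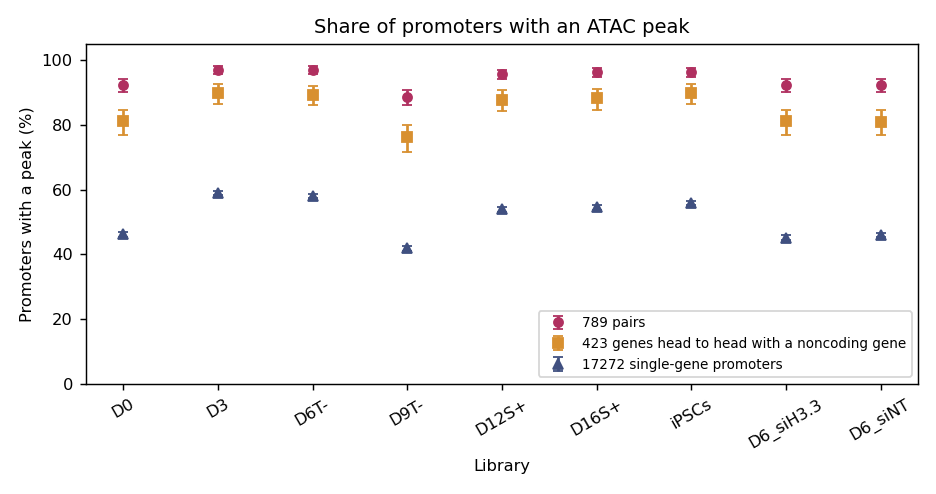
Share of promoters with an ATAC peak (vertical axis, percent) in the 9 libraries (horizontal axis) for the 789 pairs (circles), 423 genes head to head with a noncoding gene (squares) and 17272 single-gene promoters (triangles), with bars for exact 95% binomial intervals, which cover counting error only. The pairs sit between 88.6% and 97.1%, above both other classes in every library.

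The pairs also carried more signal where they were open. The median of open pairs was 1.04 CPM at D0, 2.41 at D3, 4.09 in D6T-, 1.67 in D9T-, 2.67 in D12S+, 2.55 in D16S+, 1.20 in iPSCs, 1.61 in D6_siH3.3 and 1.56 in D6_siNT. Its ratio to the median of open single-gene promoters lay between 1.23 (iPSCs) and 1.59 (D3 and D6T-), above 1 in 9 of 9 libraries. The mean log2 ratio was 0.49 (SD 0.14, exact two-sided sign-flip permutation test over libraries, p = 0.00391). The libraries stood in nearly the same order in single-gene promoters, whose medians ran from 0.82 (D0) to 2.57 (D6T-). In breadth, 673 pairs (85.3%) were open in all 9 libraries and 18 (2.28%) in none, against 6199 (35.9%) and 5987 (34.7%) of the single-gene promoters.

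Since CpG-rich promoters are open in most cells, the comparison was repeated by CpG content. A window of 500 bp on each side of the TSS, or of the midpoint of a pair, was called CpG-rich when its observed over expected CpG ratio was at least 0.75 and its GC content at least 55%, which held for 411 pairs (52.1%) and 4046 single-gene promoters (23.4%). Among CpG-rich promoters the pairs were open at 94.2% to 99.5% and single-gene promoters at 82.4% to 99.1%, a mean difference of only 5.51 points (0.209 to 11.9). Among the others, 378 pairs were open at 82.5% to 94.7% and single-gene promoters at 29.5% to 46.7%, a mean difference of 51.7 points. CpG content was not matched inside either class. Over all windows the lower quartile of the CpG ratio was 0.678 in pairs and 0.203 in single-gene promoters, so the promoters that were not CpG-rich can still differ in it. The ratio of median signals was 1.10 to 1.32 in the CpG-rich class and 1.38 to 1.89 in the other. All 4 comparisons held in 9 of 9 libraries (exact two-sided sign-flip permutation test over libraries, p = 0.00391 each). CpG content thus moves with the difference between pairs and single-gene promoters, and its part in that difference was not tested beyond this split.

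A gene whose head-to-head neighbour is annotated as noncoding also has divergent start sites. The 423 promoters of this kind were taken from all protein-coding genes in no pair. The 5 kb rule was not applied to them, so another protein-coding TSS can lie nearby. They were open at 76.1% to 89.8%, nearer to the pairs than to the 17272 single-gene promoters. The pairs were still ahead by 6.62 to 12.5 points, and their median signal was higher by 0.09 to 0.24 on the log2 scale, in 9 of 9 libraries (exact two-sided sign-flip permutation test, p = 0.00391 for each). This contrast was chosen after the data had been seen.

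The letters of the pairs set them apart from single-gene promoters in features that the rule did not use. In the same windows the median GC content was 60.3% in pairs and 54.0% in single-gene promoters, and the median CpG ratio 0.778 against 0.493. The ETS motif CCGGAAG was in 41.8% of pairs, in 16.5% of single-gene promoters and in 22.8% of the single-gene promoters with a peak in at least 1 library. In the same order GCATGCGC was in 10.1%, 4.61% and 6.50%, AAGATGGC in 14.4%, 7.06% and 7.57%, and TGACGT in 27.9%, 15.1% and 18.4%. The GC box stood at 89.0%, 57.1% and 80.0%, so that most of its difference was absent against promoters with a peak. CACGTG stood at 21.9%, 16.6% and 20.2%, and ACTACAA at 11.0%, 9.28% and 7.72%. TATAAA was rarer in pairs, at 14.3%, 34.3% and 22.4%, and so was the AP-1 motif TGANTCA, at 10.6%, 20.2% and 16.4%. The CCAAT box was at 68.1% in pairs, below the 70.8% of all single-gene promoters and above the 66.1% of those with a peak, and within 150 bp of the midpoint or TSS at 42.6%, 35.4% and 33.4%. Of the 681 stretches of at least 50 bases between TSSs, 61.8% held a GC box, 45.5% a CCAAT box and 17.9% CCGGAAG. These shares were not tested, and GC content alone raises or lowers several of them. A pair window also holds the TSSs of both genes and a single-gene window only that of its own gene. The shares do not correct for this, so they are shares per window and not per start site.

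**Figure D2:**
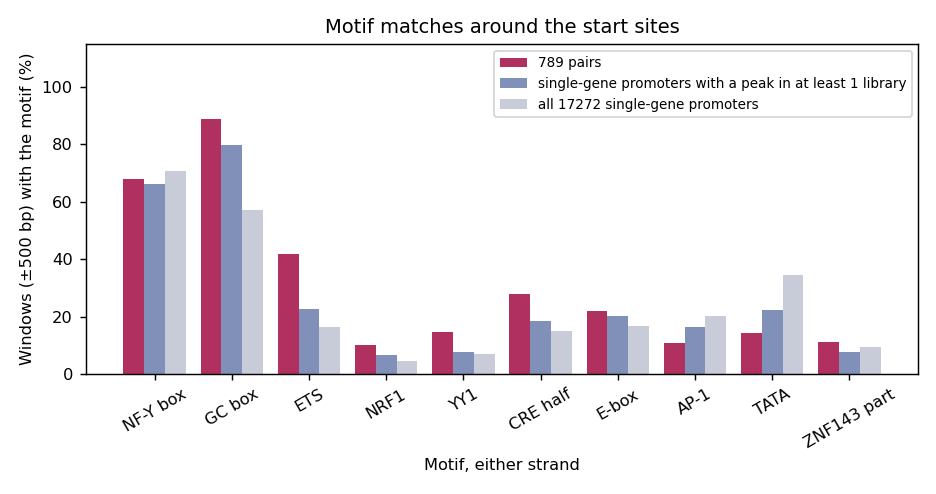
Share of windows, 500 bp on each side of the TSS or midpoint, with a motif on either strand (vertical axis, percent, from 0) for 10 motifs (horizontal axis), in the 789 pairs, in single-gene promoters with a peak in at least 1 library and in all 17272 single-gene promoters. The ETS motif stands at 41.8% in pairs, 22.8% and 16.5%, and TATA at 14.3%, 22.4% and 34.3%.

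The distance between the TSSs ran from 1 to 987 bp with quartiles of 73, 141 and 271 bp, and 622 pairs (78.8%) lay at most 300 bp apart. In most pairs 1 peak covered both starts. In 83.0% to 94.6% of open pairs, depending on the library, the strongest peak covered both TSSs, and 87.8% to 93.0% held 1 peak only. The median width of the strongest peak was 616 bp (D9T-) to 1309.5 bp (D6T-), more than most distances between the TSSs. A peak at 1 TSS alone would thus often cover both, so these shares cannot tell the cases apart. A peak can hold several summits, and a single summit was found in 32.0% (D6T-) to 69.5% (D9T-) of open pairs. The strongest summit lay between the TSSs in 47.6% (iPSCs) to 58.9% (D12S+) of open pairs, and its median distance from the midpoint was 56.8 to 77.5 bp. Summits outside the stretch lay on either gene side, with more on the minus-strand side in 7 of 9 libraries, from 183 against 153 in D6_siNT to 161 against 166 at D3. The caller extended each tag to 200 bp, so positions are blurred at that scale.

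The share of summits between the TSSs rose with the distance up to 400 bp and was lower beyond it. For the 292 pairs 1 to 100 bp apart the strongest summit lay between the TSSs in 17.0% to 32.0% of open pairs, for 219 pairs at over 100 to 200 bp in 58.0% to 70.4%, and for 169 pairs at over 200 to 400 bp in 72.1% to 82.4%. It was 62.0% to 77.8% at over 400 to 700 bp and 51.6% to 67.7% at over 700 to 1000 bp. A longer stretch offers more room, which these values do not correct for. The strongest peak covered both TSSs in a median over libraries of 97.2%, 95.8% and 93.9% of these pairs, in 69.6% of the 76 pairs at over 400 to 700 bp and in 27.3% of the 33 pairs at over 700 to 1000 bp. In the 109 pairs over 400 bp apart, 25 (D9T- and D6_siH3.3) to 41 (D3 and D6T-) had a separate summit within 200 bp of each TSS, and 49 to 63 had one at a single TSS only. The median signal was 1.34, 1.74, 2.12, 2.50 and 1.51 CPM from the shortest to the longest distance class (median over libraries), while 81.5%, 87.7%, 91.1%, 78.9% and 87.9% of the classes were open in all 9 libraries. Signal thus was lowest in the closest pairs and highest at over 400 to 700 bp, with no such order in the share open. The region grows with the distance, from 1002 to 1988 bp, and a longer region can catch a stronger summit. These medians do not correct for that.

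**Figure D3:**
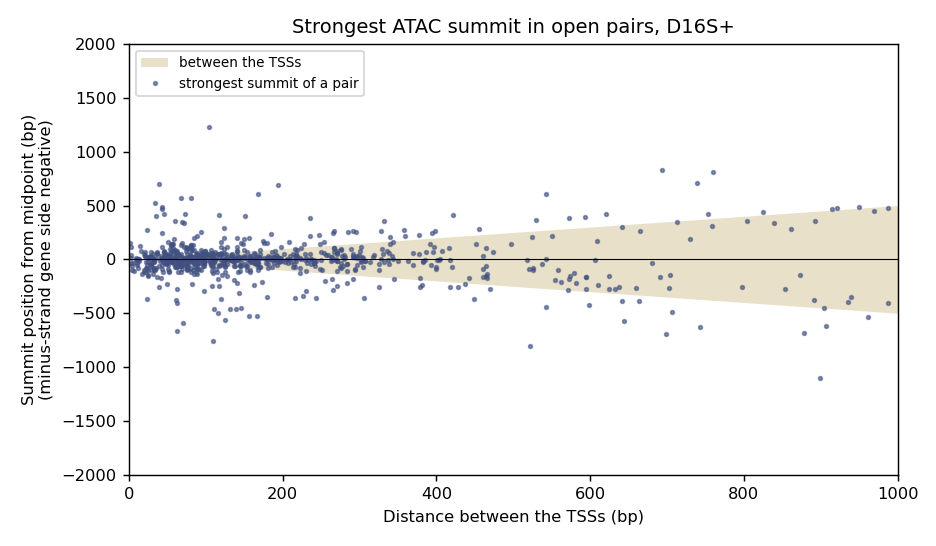
Position of the strongest summit from the midpoint of each open pair in D16S+ (vertical axis, bp, negative towards the minus-strand gene) against the distance between the TSSs (horizontal axis, bp), 1 point per pair, with the stretch between the TSSs shaded. Points cluster around 0 up to 400 bp and spread towards either TSS beyond it.

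The genes of the pairs fall into groups with known roles, described here by counts beside the 85.3% of all pairs that were open in all 9 libraries. Of 34 pairs with a DNA replication or repair gene, 32 were open in all 9, the exceptions being Tmem111/Fancd2 and Rad51c/Tex14. All 19 pairs with a mitosis or cell cycle gene were open throughout, among them Aurka/Cstf1 (Aurora kinase A), Cdc26/Prpf4 and Cdc27/Myl4 (subunits of the anaphase-promoting complex). Of 50 pairs with a gene for a mitochondrial protein, 42 were open throughout, and Eme2/Mrps34 was open in 6 libraries, the fewest. Of 22 ribosome and translation pairs, 19 were open throughout, and of 6 proteasome pairs, 5. Of 24 zinc finger pairs, 22 were open throughout. The 14 pairs of replication-dependent histone genes stand out by structure, since 12 joined an H2A gene to an H2B gene and 13 had both genes on the list, and 13 were open throughout. The closed histone pair was Hist1h2ba/Hist1h2aa, the testis-specific H2B and H2A genes. Histone genes are near-identical copies, and the authors kept uniquely mapped reads, so their signals are less certain.

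Lists of genes that mark a cell type or state gave few pairs. Of 153 fibroblast and matrix genes 5 stood in pairs (3.27%), of 76 pluripotency and germline genes 3 (3.95%), of 157 epithelial genes 1 (0.637%, in Ccdc148/Pkp4), and of 104 antigen processing and interferon genes 5 (4.81%), beside 7.29% of all protein-coding genes. Among the lists above, the share was 40.3% for histone genes, 26.4% for DNA replication and repair and 22.3% for mitochondrial proteins. It was 16.2% for mitosis and cell cycle, 12.2% for the proteasome and 9.65% for ribosome and translation. Zinc finger proteins, at 6.16%, were also below all protein-coding genes. These shares were not tested. The antigen processing and interferon genes gave 4 pairs, 2 of which were open in all 9 libraries, and the fibroblast and matrix genes also gave 4. Of the fibroblast and matrix pairs, Polk/Col4a3bp and Itgb1bp1/Cpsf3 entered by name, through a ceramide transfer protein and an integrin-binding adaptor rather than a matrix protein. The germline pairs were Gpc2/Stag3 (a meiotic cohesin subunit), open in all 9 libraries, Rad51c/Tex14, open in 7 (with its summit outside the region in 1 of them, iPSCs), and Smc1b/Ribc2 (another meiotic cohesin gene), open in 4.

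Among the pairs that textbooks use as examples, 11 of 18 met the rule. The annotated 5′ ends of the others overlap, among them by 21 bp for Col4a1/Col4a2, 111 bp for Hspd1/Hspe1 and 163 to 271 bp for Surf1/Surf2, Tap1/Psmb9 and Ppat/Paics, and by far more for Tk1/Afmid. In all, 410 pairs with overlapping 5′ ends were not included. Of the 11, 9 were open in all 9 libraries.

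Several of these pairs hold a DNA repair or replication gene, and Atm/Npat, Brca1/Nbr1 and Mcm4/Prkdc were each lowest at D0 and highest in D6T-, as the median pair above was. Atm/Npat, 307 bp apart, joins the kinase of the DNA damage response to a histone transcription coactivator and ran from 1.67 (D0) to 8.60 (D6T-) CPM. Brca1/Nbr1, 194 bp apart, joins a homologous recombination gene to an autophagy receptor gene and ran from 1.48 (D0) to 6.03 (D6T-), but in all 9 libraries its strongest summit lay outside the region, on the Nbr1 side. The strongest summit inside the region ran from 0.725 (D0) to 2.80 (D6T-). Mcm4/Prkdc, with a subunit of the replicative helicase and the catalytic subunit of DNA-dependent kinase, ran from 1.14 (D0) to 6.78 (D6T-). Hscb/Chek2, Gart/Son and Mrps12/Sars2 had medians over libraries of 3.26, 1.71 and 1.73 CPM, and Tsc2/Nthl1, only 53 bp apart, 0.86.

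Wrap53/Trp53 and Col4a4/Col4a3 were the exceptions. Wrap53/Trp53, 104 bp apart, holds the p53 gene and had no peak at D0 or in D9T-, the libraries with the lowest median signal and with the fewest tags. It stood at 0.827 CPM at D3, 1.54 in D6T-, 1.25 in D12S+, 1.32 in D16S+, 0.865 in iPSCs, 0.589 in D6_siH3.3 and 0.689 in D6_siNT. In D16S+ the summit lay outside the region, and the strongest one inside it stood at 1.23. Col4a4/Col4a3, genes for basement membrane collagen chains, had a peak in only 4 libraries, at 0.496 CPM at D3, 0.888 in D6T-, 0.756 in D16S+ and 0.64 in iPSCs. With 15 to 19 tags these peaks were near the threshold, and where none was called the signal is known only to have been below it.

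H3.3 is placed at active genes by the Hira complex, and 3 pairs held a gene from the list of H3.3 machinery. Mrpl40/Hira, 270 bp apart, stood at 1.26 CPM at D0, 3.41 at D3, 4.72 in D6T-, 2.19 in D9T-, 3.29 in D12S+, 2.74 in D16S+, 1.35 in iPSCs, 1.87 in D6_siH3.3 and 2.07 in D6_siNT. In all 9 libraries its strongest summit lay inside the region but outside the stretch between the TSSs, on the Mrpl40 side. Its position from the midpoint ran from -366 bp (D0) to -234 bp (D6_siH3.3), so these values are not centred on the Hira TSS. Glyr1/Ubn1, with a subunit of the Hira complex, had a median over libraries of 2.50, and Gm10644/Asf1b, with a histone H3 and H4 chaperone, 3.86. All 3 were open in all 9 libraries, and none passed the 2-fold rule below in any of the 4 comparisons.

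The 5 pairs with the highest median signal were open in every library. Hjurp/Trpm8, 28 bp apart, led in every one of the 9 libraries, and joins the chaperone that deposits the centromeric histone CENP-A to a cold-sensing ion channel of sensory neurons. It stood at 5.33 CPM at D0, 17.4 at D3, 29.5 in D6T-, 12.9 in D9T-, 16.9 in D12S+, 19.2 in D16S+, 7.60 in iPSCs, 11.1 in D6_siH3.3 and 9.78 in D6_siNT. Aasdhppt/Kbtbd3 followed with a median of 8.02, then Pdcd10/Serpini1 with 7.34, Etfdh/4930579G24Rik with 6.66 and Gpc2/Stag3 with 6.53. In Hjurp/Trpm8 and Pdcd10/Serpini1 one gene is widely used and the other is known from a narrow set of cells, as Trpm8 and Serpini1 (neuroserpin) are.

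**Figure D4:**
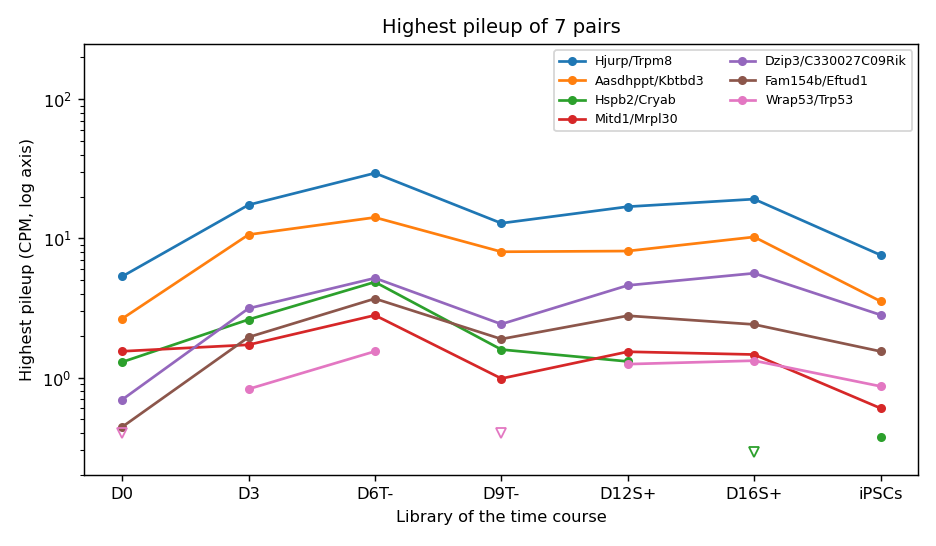
Highest pileup (vertical axis, CPM, log axis) of 7 pairs in the 7 libraries of the time course (horizontal axis), 1 value per library, with open triangles at the bottom where no peak was called. Hjurp/Trpm8 stays highest throughout, and Hspb2/Cryab goes from 1.29 at D0 to no peak in D16S+ and 0.376 in iPSCs.

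To ask which pairs differed between the start and the end, ratios of signal were centred on the median ratio of single-gene promoters with a peak in both libraries, and a difference of at least 2-fold was counted. With 1 library per condition there is no test, and intervals cover counting error only. From D0 to iPSCs the centre was a 1.28-fold shift. Of 724 pairs with a peak in both, 13 were higher in iPSCs and 16 lower, which is 1.80% and 2.21%, against 3.43% and 2.99% of all 8138 promoters compared. Without centring, 51 were higher and 4 lower. The central 90% of pairs lay between -0.83 and 0.73 on the log2 scale, with a median of -0.05, and single-gene promoters between -0.86 and 0.89. A peak was gained in 37 and lost in 4 of 765 pairs open in either library, 4.84% and 0.523%, against 20.7% and 5.22% of all promoters. All 4 shares were below those of all promoters, and 92.3% of pairs were already open at D0.

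Hspb2/Cryab was the pair with the largest decrease. These genes encode small heat shock proteins of muscle, heart and lens and are 404 bp apart, and the pair has a CpG ratio of 0.21, far below the median of pairs. It stood at 1.29 CPM (41 tags) at D0, 2.61 at D3, 4.86 in D6T-, 1.59 in D9T-, 1.31 in D12S+, no peak in D16S+, 0.376 (10 tags) in iPSCs, 1.66 in D6_siH3.3 and 1.24 in D6_siNT. The centred log2 ratio of iPSCs to D0 was -2.14 (95% counting interval -3.31 to -1.12), and D16S+ and iPSCs were the lowest of the 9 libraries. In all 8 libraries with a peak, the strongest summit of Hspb2/Cryab lay 365 bp (iPSCs) to 491 bp (D6_siH3.3) from the midpoint. This is on the Cryab side and outside the stretch between the TSSs, so the values are not centred on the shared stretch. Mitd1/Mrpl30, with a mitochondrial ribosomal protein gene, had -1.72 (-2.64 to -0.88), with 1.55 CPM (49 tags) at D0, 1.46 in D16S+ and 0.602 (16 tags) in iPSCs. Nisch/Sema3g (-1.51), Nedd8/Gmpr2 (-1.49) and Itgb1bp1/Cpsf3 (-1.29) followed, where Sema3g encodes a secreted semaphorin and Nedd8 a ubiquitin-like modifier. In the DNA replication and repair list, Osgep/Apex1 (-1.11) and Xpc/Lsm3 (-1.08) were also lower by 2-fold, and Ndufaf2/Ercc8 was higher (1.05).

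Dzip3/C330027C09Rik, 20 bp apart, had the largest increase. Dzip3 encodes a ubiquitin ligase, and the pair held 22 tags at D0, 95 at D3, 111 in D6T-, 32 in D9T-, 81 in D12S+, 119 in D16S+, 75 in iPSCs, 51 in D6_siH3.3 and 50 in D6_siNT. The centred log2 ratio of iPSCs to D0 was 1.66 (0.96 to 2.42). All libraries after D0 were above D0 in uncentred CPM, but so was the median of open pairs, which was lowest at D0. Fam154b/Eftud1, whose stretch between the TSSs shows an ETS motif, had 1.44 (0.54 to 2.43), with 14 tags at D0 and 41 in iPSCs. Entpd5/2900006K08Rik (1.24), Gm9922/Lmo7 (1.22) and A330017A19Rik/Tbcc (1.19) followed, all with 20 tags or fewer at D0.

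**Figure D5:**
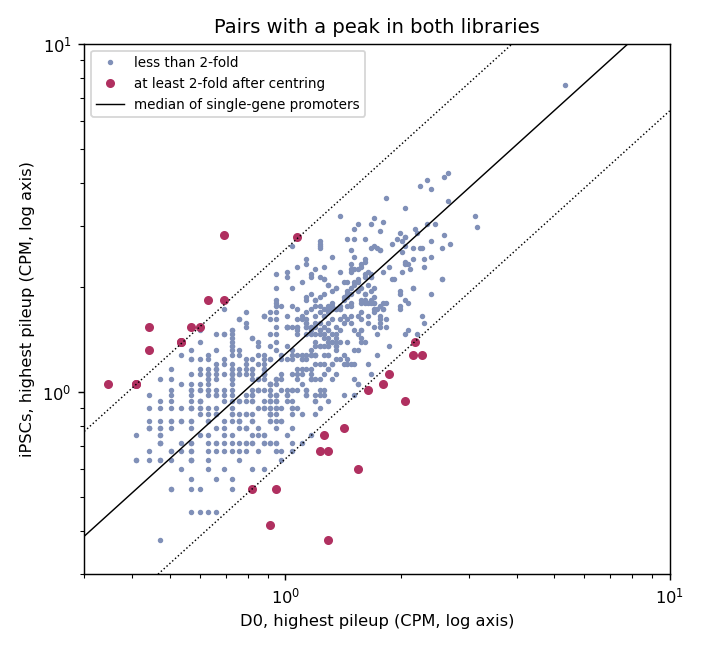
Highest pileup of the 724 pairs with a peak in both libraries at D0 (horizontal axis) and in iPSCs (vertical axis), both in CPM on log axes, 1 point per pair. The solid line is the 1.28-fold median shift of single-gene promoters, dotted lines are 2-fold on either side, and the 13 pairs above and 16 below are marked.

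From D0 to D3 the centre was a 2.33-fold shift, so most of the larger signal at D3 was common to all promoters. Of 728 pairs with a peak in both, 9 were higher and 23 lower by 2-fold, 1.24% and 3.16%, against 1.61% and 5.59% of all promoters, and without centring 534 were higher and 0 lower. Centred on single-gene promoters open in all 9 libraries, 5 were higher and 29 lower. This comparison shares the D0 library with the one above. Among pairs with the strongest summit inside the region in both libraries, the largest values were 1.31 for Tmed7/Eif1a, 1.28 for Wrn/Purg (Wrn encodes a RecQ helicase) and 1.16 for 1110002L01Rik/Asxl2 on the log2 scale, and -1.47 for Il17rb/Chdh and -1.42 for Nisch/Sema3g, named after their values were seen. Sncg/Mmrn2 (-1.56), Acd/Pard6a (-1.52) and Actg1/0610009L18Rik (1.13) had their strongest summit outside the region in D0 or D3, so these ratios are not those of the region itself.

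Pairs that opened late would show a switch with reprogramming. There were 29 pairs with no peak at D0 and a peak in D12S+, D16S+ and iPSCs, 1 of which, Wfdc3/Dnttip1, was counted under 2 gene identifiers. This is 3.68% of pairs, against 8.08% of all 18061 promoters, and 47.5% of the 61 pairs with no peak at D0, against 15.4% of such single-gene promoters. Of the 29 pairs, 28 already had a peak at D3, and they held only 10 to 47 tags in the late libraries. Ikbkap/BC026590, 14 bp apart, had no peak at D0 and 42 tags at D3, 45 in D6T-, 12 in D9T-, 30 in D12S+, 41 in D16S+ and 28 in iPSCs. Spata17/Gpatch2 held 33 tags at D3 and 28 in iPSCs, and Bai3/Gm9884, with a brain adhesion receptor, 24 and 28. In Bai3/Gm9884, 950 bp apart, the strongest summit lay 64 bp from the midpoint at D3. It lay 382, 484 and 513 bp from the midpoint in D12S+, D16S+ and iPSCs. These late summits were on the Gm9884 side, so the values are not centred on the Bai3 TSS. Cdh8/A330008L17Rik, with a neuronal cadherin, had no peak at D3 and 16 tags in D12S+, 16 in D16S+ and 26 in iPSCs. Sgce/Peg10, an imprinted pair, had 31 tags at D3 and 13 in iPSCs. D0 had the lowest median signal of the 9 libraries, and its missing peaks are only known to lie below the threshold. The reverse pattern was found in 1 pair (0.127%, against 1.87% of all promoters), Pecam1/Gm885, where Pecam1 is an endothelial adhesion gene. This pair, 575 bp apart, had 15 tags at D0, 16 at D3, 22 in D6T- and no peak in the 6 other libraries. Its strongest summit lay 331.5, 295.5 and 339.5 bp from the midpoint at D0, D3 and in D6T-. These summits were on the Gm885 side and outside the stretch between the TSSs, so the values are not centred on the Pecam1 TSS.

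The knockdown comparison asks whether these promoters differed in Thy-1- cells of day 6 after siRNA against H3.3. The siRNA was given 2 days before reprogramming, and the paper describes this knockdown as transient and limited to the early phase. How much H3.3 was missing at day 6 cannot be read from ATAC-Seq. The centre was a 1.04-fold shift. Of 715 pairs with a peak in both D6_siNT and D6_siH3.3, 2 were higher in D6_siH3.3 and 4 lower by 2-fold, 0.280% and 0.559%, against 0.396% and 0.607% of all 8074 promoters compared. Without centring, 2 were higher and 2 lower. A peak was gained in 13 and lost in 13 of 741 pairs, 1.75% each, against 5.09% and 6.51%. The central 90% of pairs lay between -0.59 and 0.50 on the log2 scale. For scale, D6T- and D6_siNT are both Thy-1- cells of day 6 without the knockdown. Between them the centre was a 0.376-fold shift, and 5 of 728 pairs were higher in D6_siNT and 4 lower (0.687% and 0.549%), against 1.82% and 0.983% of all promoters, and without centring 0 were higher and 622 lower. With the centre on single-gene promoters open in all 9 libraries, 5 were higher and 2 lower. The spread between these libraries (-0.64 to 0.70) was thus at least as wide as that across the knockdown, and D6T- had no transfection.

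The pairs past 2-fold in the knockdown comparison rested on few tags. Cntrob/Trappc1, with a centriole protein gene and a vesicle transport gene, held 29 tags in D6_siNT and 12 in D6_siH3.3, a centred log2 ratio of -1.11 (-2.21 to -0.09). 1500002C15Rik/Gm5151 had -1.05 and Bag5/2810002N01Rik -1.02, and Sgsh/Slc26a11 -1.08 with 19 tags in D6_siNT and 8 in D6_siH3.3. Spa17/Siae held 14 tags in D6_siNT and 27 in D6_siH3.3 (1.11, 0.13 to 2.16), and Tmem111/Fancd2, with a Fanconi anaemia gene, 12 and 23 (1.10, 0.04 to 2.24). Among all pairs of the named lists, Gpc2/Stag3 had 83 tags in D6_siNT and 122 in D6_siH3.3, a log2 ratio of 0.72 (0.31 to 1.14), below the 2-fold rule. Intervals that leave out 0 were found in either direction, as in Mrpl50/Zfp189 with 0.61 (0.10 to 1.12) and Etfdh/4930579G24Rik with -0.53 (-0.99 to -0.08). With 1 library per condition these intervals do not cover the spread between libraries, and no difference was tested.

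The 18 pairs with no peak in any library included pairs of genes known from few cell types. Plcz1/Capza3 are sperm genes, Dnase2b/Uox encode a lens nuclease and urate oxidase, Smyd1/Cd8b1 a muscle methyltransferase and a T cell coreceptor chain, and Cabp4/Gpr152 a retinal calcium-binding protein and an orphan receptor. Their CpG ratio lay between 0.10 and 0.39 except in the testis histone pair Hist1h2ba/Hist1h2aa (0.77), the only CpG-rich one. Others joined a widely used gene to a gene of this kind, as Rnf151/Rps2, Dgcr2/Tssk1, Dusp3/1700006E09Rik, Ccnt1/4930415O20Rik and Best1/Rab3il1 do. In these the most upstream annotated TSS was not where the widely used gene was open. Of the 18 pairs, 9 had a gene with another annotated start outside the region, 8 of them had a peak within 500 bp of such a start in at least 1 library, and 6 in all 9 libraries, through Zfp558, Dusp3, Ccnt1, Dgcr2, Rps2 and Rab3il1. Gm10598/Gm10597 and Gm10594/4933409K07Rik had the same distance (387 bp), GC content and CpG ratio, and the authors kept only uniquely mapped reads.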

How the data were processed

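ATAC-Seq was measured in 9 libraries, 1 per condition. Tags were 51 bp long. The authors aligned them to the mm9 genome using STAR (unique, at most 2 mismatches), dropped duplicates using Picard and called peaks per library without a control with MACS2, per the file headers version 2.1.0.20151222 with tags extended to 200 bp and a q-value threshold of 0.05. The deposited values used were the summit pileup (a signal), its fold enrichment (a ratio, as an alternative) and −log10 of the q-value (for a stricter threshold). Here each pileup was scaled to 1000000 tags (CPM) by the tag total of the file header. Pairs and single-gene promoters came from the GENCODE annotation of mm9, which matches the build of the files, and sequences from that genome. A region was open when a peak overlapped it by at least 1 bp. Its signal was the highest summit of such peaks, wherever the summit lay. Shares carry exact 95% binomial intervals and tag numbers exact Poisson intervals, which cover counting error only, and differences between classes were tested over libraries with an exact two-sided sign-flip permutation test. Changes between conditions have no replicate check and no test. Pairs were named when they were on the textbook or H3.3 machinery lists, among the 5 with the highest median signal, among the 5 (knockdown, 3) largest increases or decreases with at least 20 tags, among the 5 strongest late or early pairs, among the 5 closest pairs with no peak, or the strongest of a list, and any other is named as an exception or a count of few. Some items that this rule covers are not reported here. The members and lists were chosen with earlier results of these data known. Pair finding, peak overlap, centring and the permutation test were tested on simulated data. Python 3.11.15, numpy 2.4.6, pandas 2.3.3 and scipy 1.17.1 were used. Alternatives covered region width, contrast set, peak threshold, pair definition, centring and fold.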

Additional observations from a re-analysis of the deposited data

How the results depend on the processing

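No paired analysis was possible because each condition had 1 library. The share of pairs open exceeded that of the contrast under all 15 alternatives run, by 5.51 (CpG-rich windows only) to 46.6 points (36708 strongest peaks per library), and the log2 ratio of signals stayed above 0 under all 16, from 0.16 to 0.52. Against promoters with a head-to-head noncoding gene, a contrast chosen after seeing the data, these were 9.34 points and 0.16. Without D6T-, also chosen after seeing the data, they were 43.6 points and 0.46 (exact permutation p = 0.00781), and over the 7 time-course libraries 42.0 points and 0.50 (p = 0.0156), in each case the smallest p the number of libraries allows. Pairs open in all libraries numbered 377 and in none 1 in CpG-rich windows only, and pairs without predicted genes left 11 closed. Among the other alternatives the first count was 530 to 976 and the second 15 to 23. The alternatives on the single-gene windows and on the contrast do not enter these counts and gave no value there. Without centring, which leaves the shift between libraries in, the counts up and down became 51 and 4 from D0 to iPSCs, 534 and 0 from D0 to D3, and 0 and 622 from D6T- to D6_siNT, and the count down from D6_siNT to D6_siH3.3 became 2. A 1.5-fold rule gave 64 and 88, 89 and 62, 59 and 47, and 21 and 37 in the same order. Centring on single-gene promoters open in all 9 libraries gave 5 up from D0 to D3 and 2 down from D6T- to D6_siNT, and a −log10 q of at least 5 gave 1 and 1 in the knockdown comparison. With the summit required inside the region, chosen after seeing the data, the counts up and down were 14 and 15, 8 and 21, 2 and 4, and 6 and 3 for D0 to iPSCs, D0 to D3, the knockdown and D6T- to D6_siNT. The share with the strongest summit between the TSSs (54.7% in the median library) was 74.6% with 50 bp allowed on either side and 70.5% for pairs at least 100 bp apart. With a −log10 q of at least 5, the pairs open in all 9 libraries were 63.0%, 78.5% and 84.6% of the classes up to 100, 200 and 400 bp, and 1 of the antigen processing and interferon pairs. CCGGAAG was in 28.6% of pairs within 150 bp of the midpoint. Depth limits calls near 10 tags.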

Other observations

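Zwilch/Rpl4 had the highest centred ratio of the pairs from D6T- to D6_siNT, with no test possible at 1 library each. The pair holds a kinetochore gene and a ribosomal protein gene and had 16 tags in D6T- and 17 in D6_siNT, a centred log2 ratio of 1.47, and no peak in D9T- or iPSCs. The centre was a 0.376-fold shift, and the lowest value called in D6_siNT was 0.413 CPM. A pair this weak in D6T- can have a peak in both only with a ratio above the centre, so its rank depends on the threshold. Miip/Fv1, with the retrovirus restriction gene Fv1, held 69 tags at D0, 169 at D3, 257 in D6T-, 102 in D9T-, 139 in D12S+, 102 in D16S+ and 37 in iPSCs, a centred log2 ratio of iPSCs to D0 of -1.01.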
